A study of Mus musculus with 10 samples.

Results

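The genes described here are the 3-beta-hydroxysteroid dehydrogenase genes Hsd3b2, Hsd3b3, Hsd3b4, Hsd3b5, Hsd3b6 and Hsd3b7 of the mouse, the 6 rows of the deposited table of 56748 genes that carry these symbols. They were measured by RNA sequencing of liver in 10 libraries, 5 from the genotype ACSS2-flox (flox) and 5 from ACSS2-HKO (HKO). All 10 libraries came from mice fed a diet high in fat and fructose (HFFD) for 4 months, and the series' design text calls the knockout specific to liver cells. The labels give no Cre driver, sex, age, litter or batch, no chow-fed group and no wild type without loxP sites. Nothing in them says that each library is a separate animal, so the p-values below measure the spread between these libraries, which may be partly technical.

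The enzymes of this family oxidise or reduce the hydroxyl group at carbon 3 of steroids. Most act as dehydrogenase and isomerase and turn delta-5 steroids such as pregnenolone and dehydroepiandrosterone into delta-4 steroids such as progesterone and androstenedione, while Hsd3b4 and Hsd3b5 of the mouse are known as 3-ketosteroid reductases that inactivate hormones. Hsd3b5 is a textbook male-specific gene of mouse liver that depends on the pulses of growth hormone seen in males. Hsd3b6 belongs to the adrenal gland and other tissues outside the liver, and Hsd3b7 acts on C27 sterols in the synthesis of bile acids.

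In these livers Hsd3b5 was between 116.1 and 222.6 CPM (a gene's reads scaled to a common library total, with TMM scaling) in HKO, near 0 in 4 of the 5 flox libraries and at 76.3 CPM in flox replicate 4. The groups did not overlap, but the edgeR test over all genes did not call the difference. Its neighbours Hsd3b2 and Hsd3b3, 80.4% and 81.0% identical to it in coding sequence, overlapped between the groups. Hsd3b4 and Hsd3b6 had 1 read between them, and Hsd3b7 had few reads in either group.

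All members but Hsd3b7 lie in 1 cluster. The table places 8 Hsd3b genes on the minus strand of chromosome 3 over 414.1 kb, in the order Hsd3b9, Hsd3b4, Hsd3b8, Hsd3b5, Hsd3b2, Hsd3b3, Hsd3b6 and Hsd3b1. Hsd3b5 (ENSMUSG00000038092) is at 98525950 to 98537568, Hsd3b2 (ENSMUSG00000063730) at 98616571 to 98631859 and Hsd3b3 (ENSMUSG00000062410) at 98648839 to 98670443. Hsd3b7 stands apart on the plus strand of chromosome 7, at 127399776 to 127402974. The submitters' processing notes name mm10, but these positions are not those of GENCODE M21 on the same assembly, where Hsd3b5 runs from 98618634 to 98630252, so the build of the printed positions is uncertain.

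The coding sequences of the 5 members on chromosome 3 are each 1119 bases long in GENCODE M21 and fall into a pair of branches. Hsd3b2, Hsd3b3 and Hsd3b6 were 94.4% to 95.1% identical to each other, and Hsd3b4 and Hsd3b5 were 95.2% identical, while Hsd3b5 shared 80.4% with Hsd3b2 and 81.0% with Hsd3b3. Hsd3b7 was 58.6% to 62.7% identical to the others. Reads can therefore match several members, and the labels and headers do not state how the authors treated such reads. Of all stretches of 50 bases in the representative transcript, the share found in transcripts of other genes was 21.2% for Hsd3b5, 27.3% for Hsd3b2 and 34.0% for Hsd3b3, and 100% for Hsd3b4. The levels of Hsd3b2, Hsd3b3 and Hsd3b5 are uncertain to that extent. The shared stretches of Hsd3b5 were in transcripts of Hsd3b1, Hsd3b4, Hsd3b6, Hsd3b8, Hsd3b9 and pseudogenes. None of them was in a transcript of Hsd3b2 or Hsd3b3. Hsd3b4 could not be told apart from its copy Hsd3b8 by such stretches.

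The promoters of Hsd3b5, Hsd3b3 and Hsd3b2 are shown because these were the chromosome 3 members with reads, and only Hsd3b5 separated the groups. The sequences are RefSeq's, on GRCm38.p6, minus strand, 250 bases before the annotated start and 50 after, at chr3:98645485-98645784, chr3:98762361-98762660 and chr3:98724494-98724793. Capitals in the first and second lines mark exact stretches of at least 12 bases that Hsd3b5 and Hsd3b3 share, and capitals in the third mark those that Hsd3b2 shares with Hsd3b5.
Hsd3b5: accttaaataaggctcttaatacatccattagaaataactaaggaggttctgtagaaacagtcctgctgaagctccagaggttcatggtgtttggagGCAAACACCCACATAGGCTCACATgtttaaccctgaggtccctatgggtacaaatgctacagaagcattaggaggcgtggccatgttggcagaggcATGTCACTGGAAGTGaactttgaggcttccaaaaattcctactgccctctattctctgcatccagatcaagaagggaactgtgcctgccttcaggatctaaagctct
Hsd3b3: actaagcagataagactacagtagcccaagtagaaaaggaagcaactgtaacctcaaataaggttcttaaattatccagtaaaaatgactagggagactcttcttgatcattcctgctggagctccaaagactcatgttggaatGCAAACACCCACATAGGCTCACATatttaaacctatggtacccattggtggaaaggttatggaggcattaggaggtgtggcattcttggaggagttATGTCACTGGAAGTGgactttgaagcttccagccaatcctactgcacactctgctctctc
Hsd3b2: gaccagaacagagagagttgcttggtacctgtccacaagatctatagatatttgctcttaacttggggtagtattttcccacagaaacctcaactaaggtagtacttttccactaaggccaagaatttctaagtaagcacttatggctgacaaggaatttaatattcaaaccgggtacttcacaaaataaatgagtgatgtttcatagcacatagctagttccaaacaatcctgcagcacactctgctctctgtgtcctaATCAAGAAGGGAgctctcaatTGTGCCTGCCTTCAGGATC
RefSeq lists another start for Hsd3b3, whose window at chr3:98763079-98763378 was 76.3% identical to that of Hsd3b5 with 1 shared stretch, and the window shown is the one more like Hsd3b5. Over the aligned bases of the windows shown, the Hsd3b5 promoter was 77.2% identical to that of Hsd3b3 and 67.6% identical to that of Hsd3b2, and the longest exact stretch it shared was 24 bases with Hsd3b3 and 19 bases with Hsd3b2. By the same measure it was 56.6% to 63.8% identical to the windows of Hsd3b4, Hsd3b6 and Hsd3b7. For Nsdhl, a family gene on the X chromosome, the value was 60.8%.

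All 6 members had a promoter in the RefSeq table, with 8 windows in all. On both strands of these windows, the letters TTCNNNGAA, the form bound by STAT5, were in the Hsd3b7 window and in none of the chromosome 3 members' windows, against 8.3% of all 32851 promoters. The letters ATCAAT, a form bound by ONECUT factors, were in the Hsd3b4 windows alone among the members (7.5% of all promoters), and TATAAA was in 1 of the Hsd3b4 windows (13.6% of all promoters). None of these motifs contains another. These matches describe 300-base windows and say nothing about sites elsewhere, and the RefSeq start of Hsd3b5 lies 15.3 kb upstream of the start in GENCODE M21.

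The libraries held between 15413648 and 19275358 counted reads, so that 3 reads, the limit used here for a gene without reads, were worth 0.151 to 0.198 CPM. Acss2, the targeted gene and the enzyme that makes acetyl-CoA from acetate, was read in all HKO libraries (40.2 to 59.0 CPM, against 56.5 to 128.8 CPM in flox, highest in replicate 4). Its log2 fold change was -0.71 with an edgeR adjusted p of 0.0858, which passed the threshold at -0.81 (edgeR adjusted p = 0.0460) without flox replicate 3. Hepatocyte markers summed to 115256 to 176872 CPM in flox and 149138 to 190571 CPM in HKO, with Alb, the serum albumin gene, the most abundant of the 18 in the mean of either group. Y-linked Ddx3y, Eif2s3y, Kdm5d and Uty together had 2742 to 3927 reads in every library and Xist had 1 to 11. These genes were chosen after their values were seen. By them every library, flox and HKO, read as male, though the labels give no sex.

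Hsd3b5 had 6, 7, 46, 1331 and 9 reads in flox replicates 1 to 5 and 3434, 1842, 2015, 1819 and 2494 reads in HKO replicates 1 to 5. On the CPM scale its levels were 0.367, 0.426, 2.51, 76.3 and 0.453 in flox, and 222.6, 116.1, 133.1, 116.9 and 137.5 in HKO. Every HKO library was above every flox library, 4 flox libraries were at 2.51 CPM or below, and flox replicate 4 stood between them and HKO. Group means were 16.0 ± 33.7 CPM (SD, n = 5) in flox and 145.2 ± 44.3 CPM (SD, n = 5) in HKO, with medians of 0.453 and 133.1 CPM. In a whole liver, fewer cells that make a transcript and less RNA per cell cannot be told apart.

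The fitted log2 fold change of Hsd3b5 was 3.18 ± 1.15 (SE), or 9.07-fold with a 95% confidence interval of 1.63 to 50.7. Its edgeR p was 0.0157 and its edgeR adjusted p over all genes was 0.160, so the gene was not called. The exact two-sided permutation test of its log2 CPM gave a difference of 6.15 and p = 0.00794, the smallest p that 252 assignments of 5 and 5 libraries can give. Of all 14068 tested genes, 1.91% had HKO above flox with no overlap and 0.917% were called higher. Without flox replicate 4, the flox mean was 0.940 ± 1.05 CPM (SD, n = 4), the HKO mean was 154.6 times as high, and the fitted log2 fold change was 7.25 with an edgeR adjusted p of 1.05e-05. The HKO mean was 1.90 times the level of flox replicate 4.

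**Figure D1:**
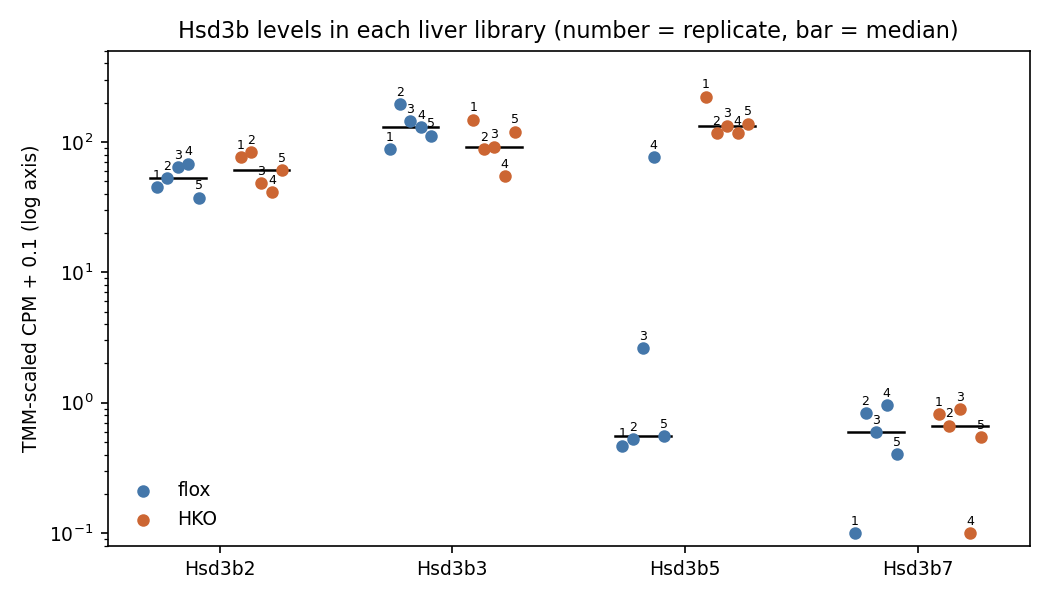
Level of Hsd3b2, Hsd3b3, Hsd3b5 and Hsd3b7 in each of 10 liver libraries, as TMM-scaled CPM plus 0.1 on a log axis. Points are libraries numbered by replicate, blue for flox and orange for HKO, and bars are medians. Hsd3b5 is the gene whose groups separate, with flox replicate 4 at 76.3 CPM between the other flox libraries (0.367 to 2.51 CPM) and HKO (116.1 to 222.6 CPM).

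Fits without a block for replicate number differed in whether they called Hsd3b5. With all 10 libraries, the edgeR fits with other size factors, with library totals alone, with a filter at 1 CPM and with robust dispersion, and DESeq2, gave log2 fold changes of 3.08 to 3.19 and did not call it. Without any filter on low counts the value was 3.19 and the edgeR adjusted p 0.0220. Leaving out each library other than flox replicate 4 gave 2.87 to 3.25, with edgeR adjusted p-values of 0.188 to 0.264. 

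**Figure D2:**
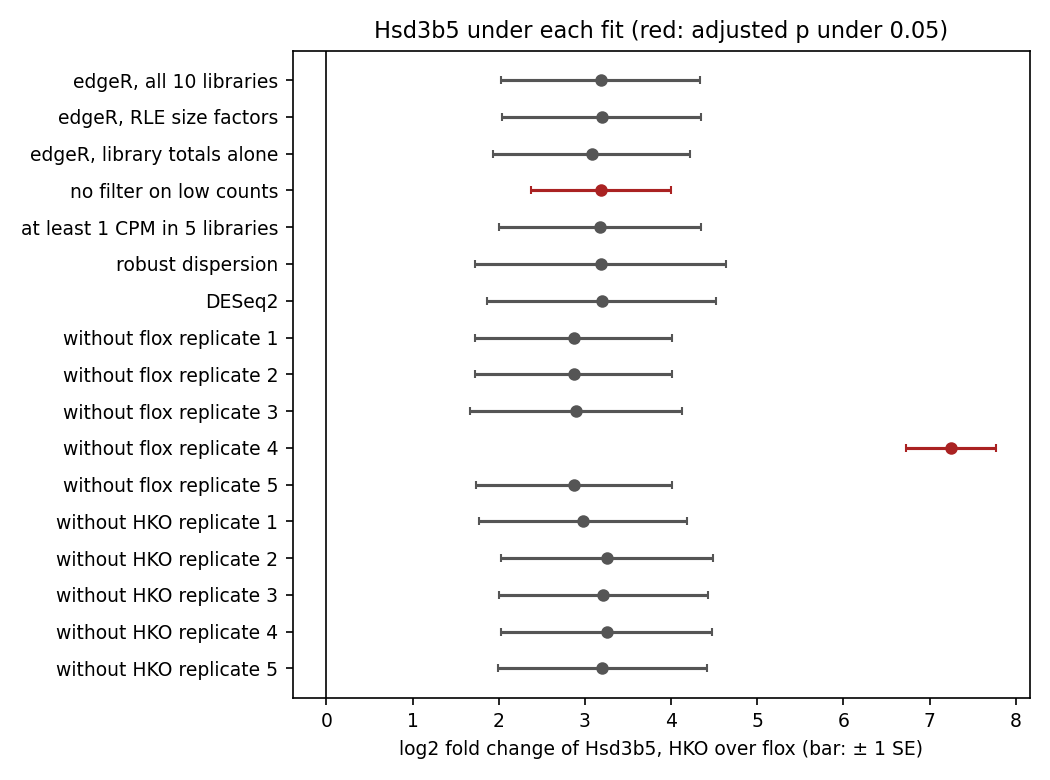
Log2 fold change of Hsd3b5, HKO over flox, under each fit without a block for replicate number (x axis, point and ± 1 SE), with the fits as rows and those with an adjusted p under 0.05 in red. Most fits lie near the value of 3.18 from all 10 libraries, the fit without flox replicate 4 lies at 7.25, and that without a filter on low counts is also red at 3.19.

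Hsd3b2, of the dehydrogenase and isomerase branch, was at 45.1, 52.9, 64.0, 68.1 and 37.2 CPM in flox replicates 1 to 5. In HKO replicates 1 to 5 it was at 76.3, 83.3, 48.2, 41.1 and 60.4 CPM. The groups overlapped widely, and flox replicate 4 was the highest of its group by a small margin. Means were 53.4 ± 12.9 (SD, n = 5) and 61.8 ± 17.9 CPM (SD, n = 5), a log2 fold change of 0.21 ± 0.21 (SE) with an edgeR adjusted p of 0.687. The 95% confidence interval of the fold was 0.840 to 1.59, which leaves room for a modest change either way.

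Hsd3b3, from the same branch, was at 87.6, 194.0, 144.5, 129.7 and 111.7 CPM in flox replicates 1 to 5. It was at 147.7, 88.2, 92.0, 54.6 and 119.6 CPM in HKO replicates 1 to 5. These groups overlapped too, and flox replicate 4 sat at the middle of its group. Means were 133.5 ± 39.9 (SD, n = 5) and 100.4 ± 35.1 CPM (SD, n = 5), a log2 fold change of -0.41 ± 0.25 (SE) with an edgeR adjusted p of 0.456. The fold's 95% confidence interval was 0.515 to 1.10. Of the 3 members that passed the filter on low counts, 0 were called by edgeR, 1 (Hsd3b5) had an unadjusted p under 0.05 and DESeq2 called none of them, against 3.99% of all tested genes called by edgeR.

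Whether Hsd3b5 differed between the groups by more than its neighbours was tested directly, from the difference of log2 CPM within each library. Hsd3b5 minus Hsd3b2 was -6.54, -6.60, -4.61, 0.16 and -6.03 in flox replicates 1 to 5, and ran from 0.48 to 1.54 in HKO. The difference was above 0 in flox replicate 4 and in all HKO libraries, and far below 0 in the other flox libraries. The mean difference between the groups was 5.96, with an exact two-sided permutation p of 0.00794. For Hsd3b5 minus Hsd3b3 the flox values were -7.50, -8.48, -5.78, -0.77 and -7.61, the HKO values ran from 0.20 to 1.10, and the mean difference was 6.59 (exact permutation p = 0.00794). The groups did not overlap in either pair. Adjustment over these 2 pairs by the Benjamini-Hochberg method left both exact p-values at 0.00794, as it must for equal p-values. Both are the smallest that the test can give and rest on the same Hsd3b5 values, so the pairs are not separate evidence.

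The same contrast shows in the make-up of the reads, which are shares of reads and not of transcripts. Of the 42505 reads that the 8 chromosome 3 Hsd3b genes had in all libraries, 42502 were from Hsd3b2, Hsd3b3 and Hsd3b5. The share of Hsd3b5 was 0.276%, 0.172%, 1.19%, 27.8% and 0.304% in flox replicates 1 to 5 and 49.8%, 40.4%, 48.7%, 55.0% and 43.3% in HKO replicates 1 to 5. Exact Clopper-Pearson 95% intervals, which cover counting error only, were 26.6% to 29.1% in flox replicate 4 and 38.9% to 41.8% in HKO replicate 2, the HKO library nearest to it. The mean share was 5.95% ± 12.2 (SD, n = 5) in flox and 47.4% ± 5.73 (SD, n = 5) in HKO, exact two-sided permutation p = 0.00794.

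The summed level of the 8 genes was 133.0, 247.2, 211.1, 274.1 and 149.3 CPM in flox replicates 1 to 5. In HKO replicates 1 to 5 it was 446.6, 287.6, 273.3, 212.6 and 317.4 CPM. The groups overlapped, with means of 202.9 ± 61.0 (SD, n = 5) and 307.5 ± 86.6 CPM (SD, n = 5), exact two-sided permutation p = 0.0476. HKO replicate 4 had the largest share of Hsd3b5 and the smallest sum of its group.

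**Figure D3:**
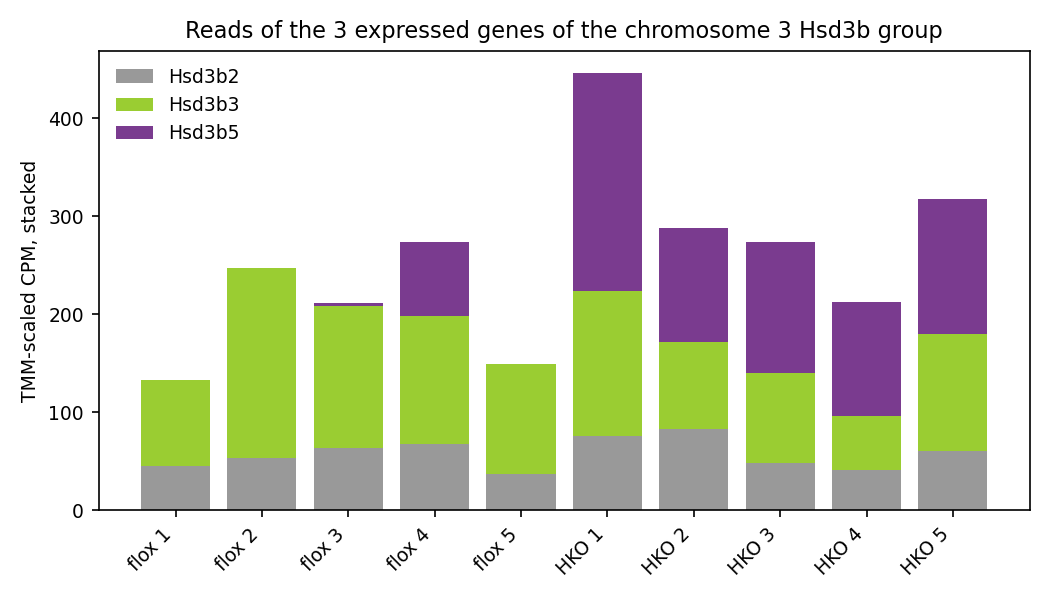
Stacked bars of Hsd3b2, Hsd3b3 and Hsd3b5 in each library (x axis, flox then HKO; y axis, TMM-scaled CPM). Hsd3b5 takes 40.4% to 55.0% of the Hsd3b reads in HKO, 27.8% in flox replicate 4 and 0.172% to 1.19% in the other flox libraries.

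Set per length, with the gene lengths of the deposited table, the level of Hsd3b3 in flox was 20.9 ± 6.24 CPM per kb, that of Hsd3b2 was 14.5 ± 3.48 CPM per kb and that of Hsd3b5 was 10.3 ± 21.8 CPM per kb (SD, n = 5), with a median of 0.293 and a maximum of 49.2 CPM per kb in flox replicate 4. In HKO Hsd3b5 was at 93.8 ± 28.6 CPM per kb, above Hsd3b2 at 16.7 ± 4.85 and Hsd3b3 at 15.7 ± 5.49 CPM per kb (SD, n = 5). Hsd3b2 and Hsd3b3 did not differ beyond their spread in HKO. The order of Hsd3b3 depends on its length, since the table gives 6396 bases and its representative GENCODE M21 transcript has 1533. With the transcript length, an alternative chosen after seeing the data, Hsd3b3 was at 87.1 ± 26.0 CPM per kb in flox and 65.5 ± 22.9 in HKO (SD, n = 5), while Hsd3b2 and Hsd3b5 have the same length in both sources.

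Hsd3b4, the closest relative of Hsd3b5 among the members, had 1 read in all, in an HKO library. Hsd3b6, the steroidogenic isoform of tissues such as the adrenal, had 0 reads in all 10 libraries, which allows up to 0.151 to 0.198 CPM per library. Outside the members, Hsd3b1 and Hsd3b9 had 1 read each and Hsd3b8 had 0. The 11 pseudogenes between these genes had 11 reads in all. Of the stretches of 50 bases, 100% for Hsd3b4 and Hsd3b8 and 82.6% for Hsd3b9 are also in transcripts of other genes. A count that drops reads shared by several genes would lose most reads of Hsd3b4, Hsd3b8 and Hsd3b9, so their levels are uncertain. The 10 markers of steroid-producing cells of adrenal and gonad summed to 3.18 to 8.51 CPM in flox and 3.58 to 7.25 CPM in HKO, and 2 of them passed the filter on low counts. These were Star, the cholesterol carrier of mitochondria, at 2.63 ± 0.682 and 3.35 ± 0.711 CPM (SD, n = 5), and Insl3, a Leydig cell hormone, at 0.815 ± 0.377 and 0.694 ± 0.303 CPM (SD, n = 5), neither called. Cyp21a1, the 21-hydroxylase, reached 5.04 CPM in flox replicate 5, and Nr5a1, Mc2r and Lhcgr had 0 reads, genes named after their values were seen. Kidney markers, a further site of Hsd3b expression, summed to at most 1.26 CPM.

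Hsd3b7, the C27 sterol dehydrogenase of bile acid synthesis, had 0, 12, 9, 15 and 6 reads in flox replicates 1 to 5 and 11, 9, 12, 0 and 8 reads in HKO replicates 1 to 5. The groups overlapped, each with 1 library at 0 reads, and the gene did not pass the filter on low counts. Its mean was 0.477 ± 0.342 CPM (SD, n = 5) in flox and 0.503 ± 0.312 CPM (SD, n = 5) in HKO, and a fit without the filter gave a log2 fold change of 0.08 ± 0.65 (SE) with an edgeR adjusted p of 0.980. The level of Hsd3b7 is uncertain. It lies wholly inside the gene model Gm49388 on the same strand, and 67.5% of it is overlapped by 9430064I24Rik on the opposite strand. Of its stretches of 50 bases, 97.5% are also in transcripts of those genes, so a count that drops reads shared by several genes would lose most of them. Gm49388 had 1 read and 9430064I24Rik had 41.

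Zfp697, on the opposite strand, spans Hsd3b4, Hsd3b5 and Hsd3b2 and 56.9% of Hsd3b3. It had 499 reads in all libraries, against 13003 for Hsd3b5, 9666 for Hsd3b2 and 19833 for Hsd3b3. The use of strand in the counting is not stated in the labels or headers.

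The other family genes with reads are Nsdhl and Sdr42e1, outside the cluster. Nsdhl, which acts on carbon 3 of sterols in cholesterol synthesis, was at 27.5, 14.9, 17.9, 45.3 and 15.3 CPM in flox and 8.69, 11.4, 23.2, 10.6 and 11.6 CPM in HKO, with overlap and with its top value in flox replicate 4. Its log2 fold change was -0.88 ± 0.33 (SE), edgeR adjusted p = 0.173, and it was -1.19 without HKO replicate 3 (edgeR adjusted p = 0.0463) and -0.52 without flox replicate 4 (edgeR adjusted p = 0.372). Sdr42e1 was at 93.5 ± 18.5 CPM in flox and 94.5 ± 25.4 CPM in HKO (SD, n = 5), edgeR adjusted p = 0.983, and its sign turned with library totals alone, to -0.086.

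Hao2, a hydroxyacid oxidase gene 14.7 kb beyond Hsd3b1 and itself known as female-biased in mouse liver, went the other way from Hsd3b5. It was at 6.55, 15.9, 8.95, 1.15 and 6.85 CPM in flox replicates 1 to 5 and at no more than 0.132 CPM in HKO, with 688 reads in flox and 6 in HKO. The groups did not overlap, as for 3.46% of all tested genes with HKO below flox, and flox replicate 4 was again the flox library nearest to HKO. The log2 fold change of Hao2 was -6.58 ± 0.73 (SE) with an edgeR adjusted p of 0.000947, and the gene was called lower under all 17 alternatives, at -6.85 to -6.16.

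Genes of steroid hormone metabolism, among them enzymes that work before and after the Hsd3b step, were looked at next. Of 26 tested genes of steroid hormone metabolism, 1 rose and 1 fell, and the median log2 fold change was -0.0011, against 0.01 over all genes. The background was 0.917% of genes called higher and 3.07% called lower. Srd5a1, a steroid 5-alpha-reductase, rose from 41.0 ± 11.7 to 66.9 ± 5.05 CPM (SD, n = 5), with a log2 fold change of 0.71 ± 0.19 (SE) and an edgeR adjusted p of 0.0486. That call was lost in 8 of 17 alternatives, among them leaving out flox replicate 4 or any single HKO library. Akr1c20, an aldo-keto reductase, fell from 130.1 ± 11.3 to 75.2 ± 11.4 CPM (SD, n = 5), a log2 fold change of -0.79 ± 0.14 (SE) with an edgeR adjusted p of 0.00961.

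Of 17 tested genes of bile acid synthesis, the pathway of Hsd3b7, 1 rose and 0 fell, with a median log2 fold change of 0.07. The background was again 0.917% of genes called higher and 3.07% lower, with a median of 0.01. The riser was Cyp7b1, the oxysterol 7-alpha-hydroxylase, which feeds Hsd3b7 its substrates in the alternative pathway and is also a known male-biased gene. It was at 55.9, 48.5, 44.1, 82.2 and 39.3 CPM in flox replicates 1 to 5 and at 215.2 to 363.4 CPM in HKO. The groups did not overlap, and flox replicate 4 was the highest of its group but far below HKO. Its log2 fold change was 2.21 ± 0.22 (SE), edgeR adjusted p = 0.000841. Cyp27a1, which starts the alternative pathway and was named after its values were seen, was at 327.6 ± 67.2 CPM in flox and 366.8 ± 31.9 CPM in HKO (SD, n = 5) and was not called (edgeR adjusted p = 0.654).

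Growth hormone signalling, the pathway Hsd3b5 is known to depend on, had 1 of 17 tested genes higher, 0 lower and a median log2 fold change of -0.03. Over all tested genes, 0.917% were called higher and 3.07% lower, with a median of 0.01. The called gene was Igf1, the liver hormone that growth hormone induces, at 351.2 to 564.9 CPM in flox and 694.6 to 928.0 CPM in HKO, without overlap. Its log2 fold change was 0.71 ± 0.16 (SE), edgeR adjusted p = 0.0233, and the count of called genes fell to 0 without HKO replicate 1 or HKO replicate 4 and was 2 without flox replicate 1 or HKO replicate 2. The feedback genes Cish and Socs2 missed the threshold, at 1.46 ± 0.41 (edgeR adjusted p = 0.0649) and 1.52 ± 0.43 (edgeR adjusted p = 0.0660) on the log2 scale, and were named after their values were seen, as were those that follow. The receptor Ghr was at 0.01 (edgeR adjusted p = 0.989) and Stat5b, the factor that carries the male pulse, at -0.23 (edgeR adjusted p = 0.549). Bcl6, a male-biased repressor of female genes, was at -0.96 (edgeR adjusted p = 0.391), and Cux2, a female-biased factor, at -1.27 (edgeR adjusted p = 0.261).

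Hsd3b5 was then set beside other genes known for a sex bias in mouse liver. Of 24 tested male-biased genes, 12 rose and 0 fell in HKO (median log2 fold change 1.54), and of 16 tested female-biased genes, 8 fell and 0 rose, with a median of -0.71. The medians stand beside 0.01 over all genes, and the background of calls is 0.917% higher and 3.07% lower. These lists were chosen with earlier results of these data known, so the counts beside that background are a description and no test. The male count was 7 without HKO replicate 1 and 7 without HKO replicate 4, and the female count was 4 without HKO replicate 4 and 5 without flox replicate 2 or flox replicate 5.

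Among the male-biased genes, Mup21 and Mup20 encode major urinary proteins. How far their reads match other Mup genes was not tested, here or for Mup7 below, which leaves these counts uncertain. Mup21 was at 30.7, 23.1, 36.8, 78.8 and 12.9 CPM in flox replicates 1 to 5 and at 139.8 to 167.7 CPM in HKO, a log2 fold change of 2.05 ± 0.36 (SE) with an edgeR adjusted p of 0.00978. Mup20 was at 762.5, 317.0, 573.1, 1325 and 456.3 CPM in flox and at 1374 to 3336 CPM in HKO, with a log2 fold change of 1.80 ± 0.34 (SE) and an edgeR adjusted p of 0.0136. Both had their top flox value in replicate 4. Cspg5, a proteoglycan gene, was at 0 to 0.302 CPM in flox and 1.10 to 2.06 CPM in HKO (log2 fold change 3.27 ± 0.51 SE, edgeR adjusted p = 0.00615), with flox replicate 4 inside the range of its group.

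Mup7, named after its values were seen, resembled Hsd3b5 in missing the call while its groups did not overlap. It was at 424.4, 2.19, 11.6, 1765 and 3.22 CPM in flox replicates 1 to 5 and at 5147 to 7957 CPM in HKO. Flox replicate 4 was the highest of its group, and flox replicate 1 came next. Its log2 fold change was 3.90 ± 1.38 (SE), edgeR adjusted p = 0.150.

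Among the female-biased genes, Cyp2b9, a cytochrome P450 of female liver, was at 391.8, 599.7, 310.5, 49.6 and 298.5 CPM in flox replicates 1 to 5 and 0.126 to 4.08 CPM in HKO, with a log2 fold change of -7.45 ± 0.80 (SE) and an edgeR adjusted p of 0.000913. Here flox replicate 4 was the lowest of its group. Cyp2a4, a steroid 15-alpha-hydroxylase, was at 3.73, 74.3, 4.70, 1.09 and 45.4 CPM in flox and at most 0.396 CPM in HKO (log2 fold change -7.05 ± 1.26 SE, edgeR adjusted p = 0.0106). Cyp2b10, a target of the receptor CAR, was at 9.67, 10.7, 1.09, 1.72 and 0.655 CPM in flox and 0.0630 to 0.551 CPM in HKO (log2 fold change -3.60 ± 0.80 SE, edgeR adjusted p = 0.0233), with its lowest flox value in replicate 5. The Cyp2a and Cyp2b genes have close copies, so their counts are uncertain too, to an extent that was not tested.

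Counted over the called genes, flox replicate 4 was the flox library nearest to HKO for 9 of 12 male-biased and 5 of 8 female-biased genes. The other flox libraries were nearest for 0 to 2 genes in each list. Over all 561 called genes the share of flox replicate 4 was 22.3%, and those of the other flox libraries ran from 8.91% to 31.7%. For the 14 macrophage markers it was nearest for 0, and flox replicate 3 for 11. These counts are a description of the libraries, with no test.

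**Figure D4:**
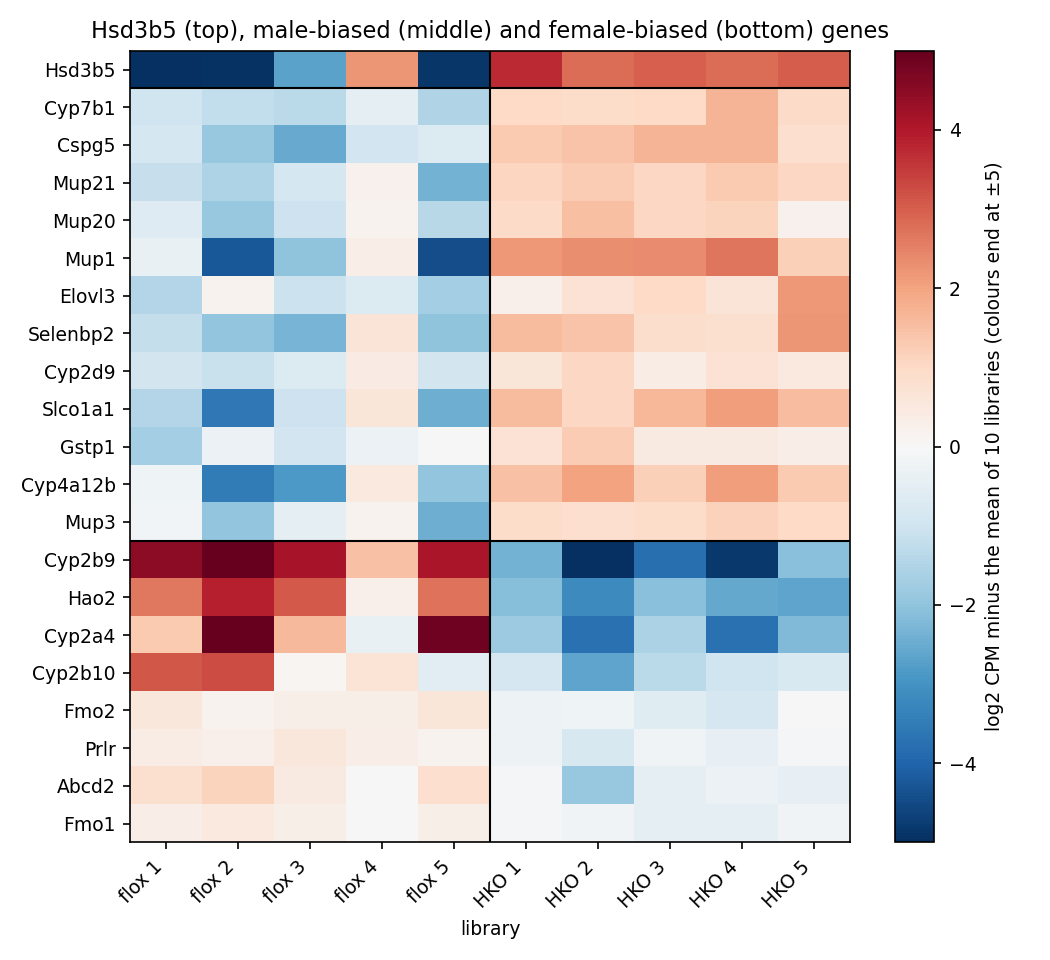
Log2 CPM minus the mean of the 10 libraries for Hsd3b5 (top), the 12 male-biased genes called higher (middle) and the 8 female-biased genes called lower (bottom), with libraries as columns and colours that end at ±5. Flox replicate 4 is the flox library nearest to HKO in 9 of the 12 male-biased and 5 of the 8 female-biased rows, and Hsd3b5 is at 76.3 CPM there.

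Of the markers of liver cell types, those of macrophages moved with the groups as a set. All 14 tested macrophage markers were called lower in HKO (median log2 fold change -1.74), and their summed level was 340.0 to 835.6 CPM in flox and 126.2 to 263.7 CPM in HKO. None was at 0 in all libraries. Over all tested genes, 3.07% were called lower and 0.917% higher. The marker lists too were chosen with earlier results known, so their counts are a description and no test. Of the endothelial markers 1 of 8 (Cdh5) was called lower, and of the 18 hepatocyte, 8 stellate and 5 tested cholangiocyte markers 0 were called by edgeR, where DESeq2 called 3 hepatocyte markers higher and edgeR without a filter on low counts called 1 hepatocyte marker higher and 2 stellate markers lower. The Cdh5 call was lost without flox replicate 4 or 5 and without HKO replicate 1, 2 or 4. Without flox replicate 4, 2 hepatocyte markers were called higher and 1 stellate marker lower. Their part in the Hsd3b5 result was not tested.

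The genes whose levels followed Hsd3b5 most closely over the 10 libraries, by Spearman correlation among 11656 genes, were Tmem11 (0.964), Wdr74 (0.964), Psme3ip1 (0.952), Ssr4 (0.939) and Ahsg (0.939). None of these 5 was called, and their log2 fold changes were 0.30 to 0.45. The 10 libraries form the 2 groups compared, so these correlations describe the rank order of libraries and carry no p. For Hsd3b7 the closest included Mbl2 (0.930), Gas8 (0.918), Mzt2 (0.912) and Dctpp1 (0.881), and with 82 reads in all the ranks of Hsd3b7 rest on few reads a library.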

How the data were processed

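Per the labels' protocols, libraries were made from total RNA with the VAHTS Universal V6 RNA-seq kit. The authors deposited 1 table of raw read counts, whole numbers with no scaling to library size. The submitters' processing notes name mm10 and DESeq2, and not given in the sources used here are the aligner, the counter, the annotation, the use of strand and the handling of reads that match more than 1 place. Counts of 10 libraries were fitted with edgeR 4.0.16 (TMM, filterByExpr by group, quasi-likelihood F-test, two-sided, Benjamini-Hochberg over 14068 genes, threshold 0.05) in R 4.3.3, with no covariate. The SE was taken back from the F statistic (size of the log2 fold change divided by its root). Levels are TMM-scaled CPM, log2 CPM used a prior count of 2, and single values were compared by exact permutation over 252 assignments. Between libraries of a group, chi-square per degree of freedom was at least 24.6, so none looked like a copy of another.

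Alternatives were DESeq2 1.42.0, other scalings, filters and dispersion, a replicate block, and leaving out each library. Promoters are RefSeq's and transcripts GENCODE M21's, compared with Biopython 1.88. The fit was tested on simulated counts of this comparison for 13885 genes. There it found 52.6% of the 2-fold changes and 94.7% of the 4-fold changes, with 6 false calls among 146. The libraries of a simulated group shared a common mean, with none set apart. These shares therefore do not describe a gene such as Hsd3b5, with flox replicate 4 apart from its group. The members and gene lists were chosen with earlier results of these data known. The genes named were all members and other family genes with reads, Acss2, up to 4 called genes per list with the smallest adjusted p (or, where none was called, up to 2 of highest level), and the 5 genes most correlated with Hsd3b5 and with Hsd3b7, of which 1 is not reported here. The text says where another gene was picked from its values. Hsd17b8 and Sts, fixed in the steroid list, were not used here.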

Additional observations from a re-analysis of the deposited data

Results flagged for a closer look

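In 14 groups of 5 libraries (7 genes in 2 groups), 3 libraries stood apart from the rest of their group on the CPM scale. Each had a gap to the nearest library above 0.71 of the group's range. For normally distributed values chance gives about 1 such group in 20, and CPM were not shown to be so distributed. Hsd3b5 in flox replicate 4 was at 76.3 CPM, and the gap was 0.972 of the range. On the log2 CPM scale that library was at 6.26, the next flox library at 1.40 and the lowest at -1.04. There the gap was below the limit of 0.71. Hsd3b5 in HKO replicate 1 was at 222.6 CPM, with a gap of 0.799. Nsdhl in HKO replicate 3 was at 23.2 CPM, with a gap of 0.801. The log2 fold change of Hsd3b5 was 3.18 with flox replicate 4, where it was not called, and 7.25 without that library, where it was. Without HKO replicate 1 the gene stayed uncalled.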

How the results depend on the processing

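Hsd3b2 (0.08 to 0.33) and Hsd3b3 (-0.59 to -0.24) kept their sign and stayed uncalled in all 17 alternatives, and the differences of Hsd3b5 from Hsd3b2 (5.49 to 7.18) and from Hsd3b3 (5.98 to 7.90) kept their sign in all 12 of theirs, where the exact permutation p cannot show a weakening because it is at or near the smallest possible. Hsd3b5 was called at 3.19 without a filter, at 6.30 with the replicate block (edgeR adjusted p = 0.0188), and ranged from 2.87 to 7.25 when single libraries were left out, and the cause of the first was not tested. Acss2 was called with library totals alone (-0.80), without a filter (-0.70) and by DESeq2 (-0.70), and ranged from -0.81 to -0.47 when single libraries were left out. Sdr42e1, not called in any fit, had the opposite sign with library totals alone (-0.086) and the replicate block (-0.012), and ranged from -0.083 to 0.155 without single libraries. The same-numbered libraries' deviations correlated at -0.121 to 0.240, and 1 of 10 libraries correlated best with its own number, so the numbers do not pair the samples. With the replicate block 19 male-biased genes were higher, 5 female-biased lower, 4 growth hormone genes higher and 0 steroid genes higher. Without a filter the counts were 214 genes higher in all, 21 male-biased higher, 1 female-biased higher, 4 growth hormone genes higher, 1 bile acid gene lower and 2 steroid genes lower. DESeq2 gave 304 genes higher and 717 lower, 2 bile acid genes higher and 1 lower, 1 female-biased higher, 3 growth hormone genes higher and 3 steroid genes lower. Library totals alone gave 1 bile acid gene lower, and 0 steroid genes higher and 3 lower. Leaving out single libraries gave 69 to 160 genes higher (69 without HKO replicate 4) and 220 to 522 lower (220, 242, 256 and 259 without HKO replicates 4, 1 and 5 and flox replicate 5), 7 to 18 male-biased higher, 4 to 9 female-biased lower, 0 to 1 female-biased higher (1 without HKO replicate 2 or flox replicate 3), 0 to 2 growth hormone genes higher and 0 to 1 steroid genes higher. The cause of these shifts was not tested. The few reads of Hsd3b7, at most 15 a library, and of Hsd3b4 and Hsd3b6 limit what can be said of them, and the part of depth and of the counting rule in those low counts was not tested.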

Other observations

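A search over all 14068 tested genes, made after the values of Hsd3b5 were seen, looked for genes in which 1 flox library lay between the other flox libraries and all HKO libraries and at least 5-fold from the nearest other flox library. Toward higher levels that library also had to reach 1 CPM, and toward lower levels every other flox library had to. For flox replicate 4 there were 4 such genes toward higher levels (Hsd3b5, Mup12, Mup17 and Serpina1e) and 3 toward lower levels (Cyp2a22, Cyp2b9 and Hao2). For flox replicates 1, 2, 3 and 5 there were 0. Mup12, a major urinary protein gene, was at 933.3 CPM in flox replicate 4, 3.32 to 16.0 CPM in the other flox libraries and 1207 to 8051 CPM in HKO. Serpina1e, of the alpha-1-antitrypsin family, was at 3130 CPM there, 54.7 to 191.5 CPM in the other flox libraries and 3281 to 7410 CPM in HKO. Cyp2a22, a cytochrome P450 gene, was at 17.5 CPM there, 111.7 to 304.1 CPM in the other flox libraries and 1.99 to 7.83 CPM in HKO. The 3 genes toward lower levels were called by edgeR and the 4 toward higher levels were not. Over all tested genes, 305 had groups that did not overlap and were not called, Hsd3b5 among them. Mup12, Mup17 and Serpina1e come from families with near-identical copies, and their counts are uncertain for that reason.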
